A study of Mus musculus with 2 samples.

Results

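The genes described here carry sugar through the first steps of hepatic metabolism. They are the glucose transporter gene *Slc2a2*, the regulatory protein gene *Gckr*, the glycolytic genes *Pfkl*, *Pfkfb1*, *Gapdh* and *Pklr*, the fructolytic gene *Khk*, and *Mlxipl*, which encodes the transcription factor ChREBP. They were selected by gene symbol for their roles, with earlier results of these data known, and all 8 were found among the 53342 rows of the deposited liver data. In hepatocytes, glucose enters through the low-affinity transporter GLUT2 and is then phosphorylated, a step that the regulatory protein GCKR restrains when glucose is low. Fructose bypasses the phosphofructokinase step, because ketohexokinase phosphorylates it directly and the product is then split into trioses. ChREBP is activated by sugar phosphates, pairs with MLX and binds carbohydrate response elements, of which the one in the promoter of *Pklr* is the classical example.

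Liver mRNA was sequenced in 1 control library and 1 iFIRKO library of male mice. The iFIRKO mice carried Adipoq-CreERT2 together with Insr flox/flox, so that tamoxifen induces deletion of the insulin receptor in adipocytes under the adiponectin promoter, and not in hepatocytes. The control mice are labelled WT, whereas the study's methods describe them as IR flox/flox without the Cre. Both groups received tamoxifen at 100 mg/kg on 5 days from the age of 7 weeks, and the liver was taken 3 days after the last dose. Each genotype had 1 library, and whether its RNA came from 1 animal or from pooled animals is not stated. No difference therefore has a replicate check, and no p-value was computed. In what follows, control and iFIRKO stand for these libraries.

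The deposited value of a gene is the log2 of a normalized read count, and it was returned to the linear scale, in normalized reads. The estimated depth was 21138292 read pairs in control and 20652476 in iFIRKO. Intervals are 95% exact Clopper-Pearson intervals on estimated read pairs, which cover counting error between these 2 libraries only and leave out variation between mice. They treat the estimated pairs, rounded to whole numbers, as binomial counts, and are approximate because many low values were not whole. *Insr* had 4246 normalized reads in control against 3692 in iFIRKO, which does not test a deletion in adipocytes. Of the adipocyte markers, *Adipoq*, *Lep* and *Plin1* were listed at 2.01 normalized reads or less in both livers, and *Fabp4*, which other cells also express, had 469.9 and 469.0. *Alb*, the albumin gene of hepatocytes, had 4167154 normalized reads in control against 3944155 in iFIRKO. The 5 hepatocyte markers had log2 fold changes from -0.94 to 0.29. Gene positions are given on GRCm38.

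Promoter stretches of 3 genes are shown. ChREBP binds paired E-box-like hexamers, and *Pklr* and *Khk* are among its known targets. Of the 3 stretches, only that of *Pklr* holds a paired match, and those of *Khk* and *Mlxipl* hold a single E-box. RefSeq promoter windows on GRCm38.p6, from 250 bases before to 50 bases after each annotated start, were available for all 8 genes, in 13 windows. Capitals mark the match to a motif. Each motif reads the same on either strand, so a search of the given strand covers both. Coordinates in brackets are those of the whole printed stretch, flanks included. The strict form of the carbohydrate response element was the hexamer CACGNG followed after 5 bases by CNCGTG, and it lay at positions -170 to -154 from the downstream start of *Pklr* (chr3:89136447-89136475, plus strand). A single E-box, CACGTG, lay at positions -71 to -66 from the start of *Khk* (chr5:30921476-30921505, plus strand). Another lay at positions -98 to -93 from the upstream start of *Mlxipl* (chr5:135089780-135089809, plus strand).
Pklr: ggacgcCACGGGGCACTCCCGTGgttcct
Khk: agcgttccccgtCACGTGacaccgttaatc
Mlxipl: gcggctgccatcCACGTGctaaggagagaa

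The strict form occurred in 15 of 32851 promoter windows (0.0457%), and that of *Pklr* was the single one among the 13 windows described here. The E-box occurred in 7.15% of all windows and in 2 of the 13. A looser form, CANNNG followed after 5 bases by CNNNTG, occurred in 7.38% of all windows and includes every strict match. It was present in 2 of the 13 windows, those of *Pklr* and *Gapdh*. The *Gapdh* match, at positions -116 to -100, is not printed. *Khk* and *Mlxipl* had neither the strict nor the looser form in their windows. Besides *Pklr*, 3 genes with a strict match had enough reads to be compared, and their log2 fold changes were -0.07 for *A430005L14Rik*, 0.19 for *Crybg3* and 0.69 for *Fam124a*. A match describes the letters of the window and does not show that ChREBP was bound there.

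To describe how sugar-handling genes differed between the livers, the fold change was taken as iFIRKO over control after adding a pseudocount of 4.18 normalized reads, a CPM of 0.1, to each value. Genes with a CPM of at least 1, which is 41.8 normalized reads, in 1 or both libraries were compared, and 13400 genes met this, all 8 genes among them. *Pklr* and *Khk* were more than 1.5-fold higher in iFIRKO, the fold limit of the study's methods, and none of the 8 was more than 1.5-fold lower. For all genes compared, 4.46% were more than 1.5-fold higher and 7.28% more than 1.5-fold lower, 11.7% in all. Of the 3534 genes at or above the mean level of the least abundant of the 8, 2.6% were higher and 2.83% lower, 5.43% in all. The median log2 fold change of the 8 genes was 0.39, against 0.01 over all genes compared. Since the genes were not chosen blind to these libraries, the shares are given as background only.

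**Figure D1:**
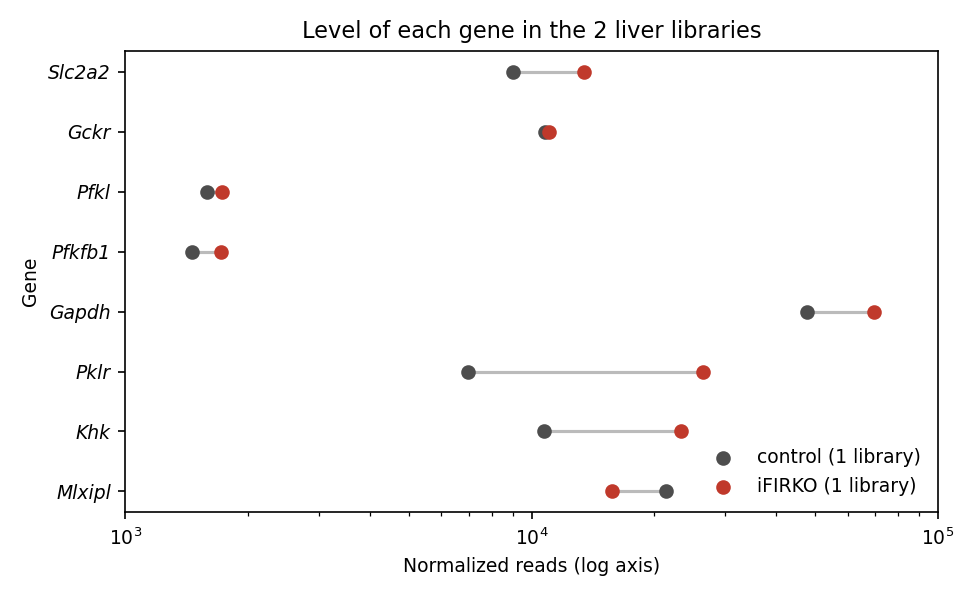
Normalized reads (log axis) of each of the 8 genes in the control library (grey) and the iFIRKO library (red), 1 library each. *Pklr* moved from 6984 to 26413 normalized reads and *Khk* from 10708 to 23385, whereas *Mlxipl* had fewer reads in iFIRKO.

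*Slc2a2*, which encodes GLUT2 (ENSMUSG00000027690.13, chromosome 3, 28697903 to 28731359), had 9018 normalized reads in control against 13495 in iFIRKO. The iFIRKO value was 1.496-fold the control value (interval 1.44 to 1.55), a log2 fold change of 0.58. It fell just short of the 1.5-fold limit, whose log2 is 0.585, and the interval includes the limit. The other 5 *Slc2a* genes of the list, among them the fructose transporter gene *Slc2a5*, had log2 fold changes from -0.27 (*Slc2a1*) to 0.14 (*Slc2a9*). *Slc2a2* accounted for 69.4% of the summed level per kilobase of these 6 *Slc2a* genes in control and 77.9% in iFIRKO, with *Slc2a9* next at 13.0% and 10.8%.

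*Gckr* (ENSMUSG00000059434.9, chromosome 5, 31297443 to 31327314) had 10768 normalized reads in control against 11060 in iFIRKO. Its log2 fold change of 0.04 had an interval from -0.02 to 0.09, so a difference was not detectable at this depth. Per kilobase of merged exons, its level was 2484 normalized reads in control and 2551 in iFIRKO.

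*Pfkl*, the liver subunit of phosphofructokinase (ENSMUSG00000020277.10, chromosome 10, 77986947 to 78010083), had 1592 normalized reads in control against 1724 in iFIRKO. Its log2 fold change of 0.12 (interval -0.03 to 0.26) did not separate the libraries beyond counting error. The muscle-type gene *Pfkm* was equally close, with 780.2 and 851.6 normalized reads. Per kilobase of merged exons, *Pfkl* made up 49.1% of the 3 phosphofructokinase genes in control and 49.2% in iFIRKO. With the longest annotated transcript as the length, these shares were 59.4% and 59.6%, so the near-equal levels of *Pfkl* and *Pfkm* depend on the length used.

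*Pfkfb1* (ENSMUSG00000025271.13, chromosome X, 150588229 to 150643878) encodes the liver form of the bifunctional enzyme that makes and breaks down the allosteric activator of phosphofructokinase. It had 1460 normalized reads in control against 1715 in iFIRKO, and its log2 fold change was 0.23 (interval 0.09 to 0.38), which turned to -0.31 when scaled to *Gapdh*. The related gene *Pfkfb3* was past the 1.5-fold limit, with 288.3 and 487.6 normalized reads and a log2 fold change of 0.75 (interval 0.45 to 1.06). *Pfkfb2* had a log2 fold change of 0.46 and *Pfkfb4* one of -0.52, and *Tigar*, a phosphatase that degrades the same activator, had 0.27. *Pfkfb1* nevertheless kept most of the summed level per kilobase of the 4 *Pfkfb* genes, 75.4% in control and 72.4% in iFIRKO. Without a length correction these shares were 63.8% and 59.5%.

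*Gapdh*, the dehydrogenase of the triose stage (ENSMUSG00000057666.18, chromosome 6, 125161715 to 125166467), had the highest level of the 8 genes per kilobase. It had 47669 normalized reads in control against 69657 in iFIRKO, 1.46-fold the control value (interval 1.44 to 1.49) and a log2 fold change of 0.55. Its change exceeded that of 94.9% of the genes compared, although *Gapdh* is widely used as a reference gene. The study's RT-PCR used it as the reference for primary miRNAs. Scaled to *Gapdh* instead of by the authors' normalization, 156 genes were more than 1.5-fold higher and 5660 lower, in place of 597 and 976. *Rplp0*, also named 36b4 and the mRNA reference of the study's RT-PCR, had 15367 and 13262 normalized reads, a log2 fold change of -0.21. Scaled to *Rplp0*, 1302 genes were higher and 505 lower, and *Gapdh* and *Slc2a2* passed the 1.5-fold limit. The *Gapdh* row may share reads with near-identical pseudogenes, and 2 of them, *Gapdh-ps14* and *Gapdh-ps15*, had at most 6.44 normalized reads in either library.

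*Pklr*, the pyruvate kinase gene of liver and red cells (ENSMUSG00000041237.12, chromosome 3, 89136142 to 89146784), showed the largest change of the 8. It had 6984 normalized reads in control against 26413 in iFIRKO. The iFIRKO value was 3.78-fold the control value (interval 3.64 to 3.93), a log2 fold change of 1.92 that ranked 26th from the top among 13400 genes. *Pkm*, the pyruvate kinase gene of most other tissues, had 1260 and 1085 normalized reads and a log2 fold change of -0.22 (interval -0.38 to -0.05). *Pklr* made up 89.5% of the summed level per kilobase of both genes in control and 97.4% in iFIRKO, a share that the scaling between libraries does not enter.

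The liver and red cell forms of *Pklr* start at different sites, and the gene-level value does not separate them. Erythroid markers were also higher in iFIRKO, where the 8 listed markers summed to 27066 normalized reads against 13578 in the control library. Of the 7 markers with enough reads, 6 were more than 1.5-fold higher, beside 4.46% of all genes compared. *Klf1*, a transcription factor of red cell precursors, was lower, and none of the 8 markers was listed at 0. Their part in the *Pklr* value was not tested.

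*Khk*, the gene of ketohexokinase (ENSMUSG00000029162.15, chromosome 5, 30921431 to 30931248), had 10708 normalized reads in control against 23385 in iFIRKO. The iFIRKO value was 2.18-fold the control value (interval 2.11 to 2.26), a log2 fold change of 1.13 that ranked 145th from the top. *Tkfc*, whose product phosphorylates the glyceraldehyde that fructose breakdown yields, had 16954 and 44652 normalized reads, a log2 fold change of 1.40.

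Of the 7 genes of the fructose and polyol list, 3 were more than 1.5-fold higher, *Khk* and *Tkfc* among them, and none was lower. The shares over all genes compared were 4.46% higher and 7.28% lower, and the list was written with earlier results known. *Sord*, the sorbitol dehydrogenase that makes fructose, had a log2 fold change of 0.13, and *Glyctk*, a glycerate kinase of an alternative route, one of 0.32. *Slc2a5*, the fructose transporter gene, had 168.5 and 164.5 normalized reads, with an interval from -0.49 to 0.42 on the log2 scale. Per kilobase, the level of *Khk* was 1.62 times that of *Tkfc* in control and 1.35 times in iFIRKO.

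*Mlxipl* (ENSMUSG00000005373.13, chromosome 5, 135089890 to 135138382) was the one gene of the 8 with a lower value in iFIRKO, and its counting interval lay below no difference. It had 21448 normalized reads in control against 15805 in iFIRKO, 0.737-fold the control value (interval 0.716 to 0.759) and a log2 fold change of -0.44. It did not reach the 1.5-fold limit. Its dimer partner *Mlx* had 1550 and 1535 normalized reads, and the paralog *Mlxip*, which encodes MondoA, had 685.5 and 587.5. Per kilobase, *Pklr* stood at 0.557 times the level of *Mlxipl* in control and at 2.86 times in iFIRKO. The alpha and beta forms of ChREBP start at different promoters of this gene and are not separated by its single row.

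**Figure D2:**
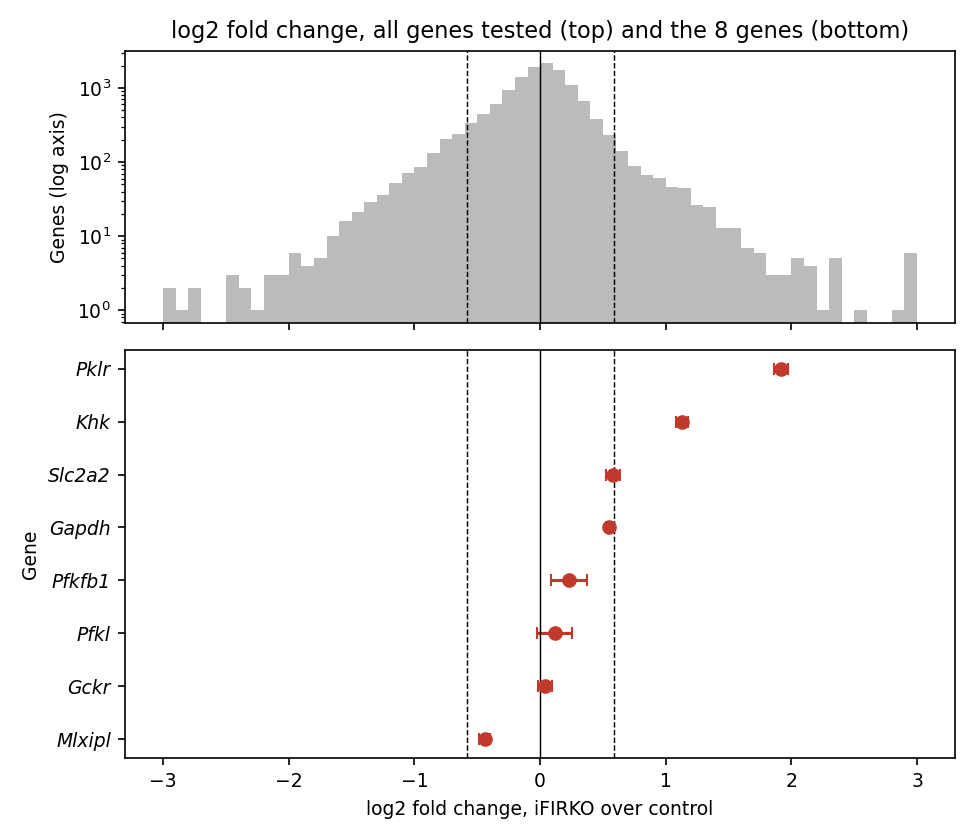
Top, histogram of the log2 fold change, iFIRKO over control, of the 13400 genes compared (log axis, values beyond 3 in either direction drawn at 3). Bottom, the log2 fold change of the 8 genes with 95% counting intervals, where dashed lines mark 1.5-fold. *Pklr* and *Khk* lie past the upper line, with *Slc2a2* just short of it and *Mlxipl* below 0.

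Within the control library the order of the 8 genes by level per kilobase of merged exons was *Gapdh*, *Khk*, *Mlxipl*, *Gckr*, *Pklr*, *Slc2a2*, *Pfkfb1* and *Pfkl*. *Gapdh* had 11534 normalized reads per kilobase and *Pfkl* 238.5. In iFIRKO *Pklr* moved up from the fifth place to the third, with 8162 normalized reads per kilobase against 2158 in the control library, ahead of *Mlxipl* at 2854 and *Gckr* at 2551. The other genes kept their order. Of the 8 genes, 5 had an interval of the fold change wholly above no difference, 1 wholly below, and 2, *Gckr* and *Pfkl*, had one that included it. The matching shares of all genes compared were not computed. At this depth a small difference can lie outside counting error, as for the hepatocyte gene *Hnf4a* at -0.04 (interval -0.08 to -0.01).

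The other genes of these routes were taken from 8 lists of sugar metabolism genes, which were also written with earlier results known. Of the 73 genes on these lists, 68 had enough reads to be compared, of which 8 were more than 1.5-fold higher and 3 lower, with a median log2 fold change of 0.13. Without the 8 genes described here, 6 of 60 were higher and 3 lower, beside the 4.46% and 7.28% of all genes compared. With a list of ChREBP targets added, which includes genes of lipid synthesis and other functions, 14 of 84 genes were higher and 6 lower. In the list from hexose phosphate to pyruvate, 3 of 15 genes were higher, *Pklr* and *Gpi1* among them, and *Aldoc*, the brain-type aldolase gene, was lower at -0.76. *Gpi1*, the isomerase between the glucose and fructose phosphates, had 6656 normalized reads in control against 12600 in iFIRKO, or 0.92 as a log2 fold change (interval 0.86 to 0.98). *Eno1*, an enolase gene, had a log2 fold change of 0.56, close to that of *Gapdh*, while *Tpi1* and *Pgk1*, which act beside *Gapdh* in the route, had 0.03 and 0.12.

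In the hexose entry list none of 11 genes was more than 1.5-fold higher, and *Hk3* was lower, with 569.4 and 314.0 normalized reads. *Hk3* is the hexokinase of myeloid cells, and the 6 Kupffer cell and macrophage markers summed to 27196 normalized reads in control against 17572 in iFIRKO, with 4 of the 6 more than 1.5-fold lower and none listed at 0. In a bulk sample, fewer cells of a type and less RNA per cell cannot be told apart, and the part of these cells in the *Hk3* value was not tested. The 2 B cell and 2 neutrophil markers with enough reads were also more than 1.5-fold lower, as were 2 of 4 sinusoidal endothelial markers. Among all genes compared, 7.28% were more than 1.5-fold lower and 4.46% higher. None of 3 stellate and none of 4 cholangiocyte markers passed the limit, and the 3 T and NK cell markers had too few reads to be compared. The 5 pancreatic markers were listed at 0 in both libraries, and those of kidney tubule and skeletal muscle summed to 3.97 normalized reads or less.

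**Figure D3:**
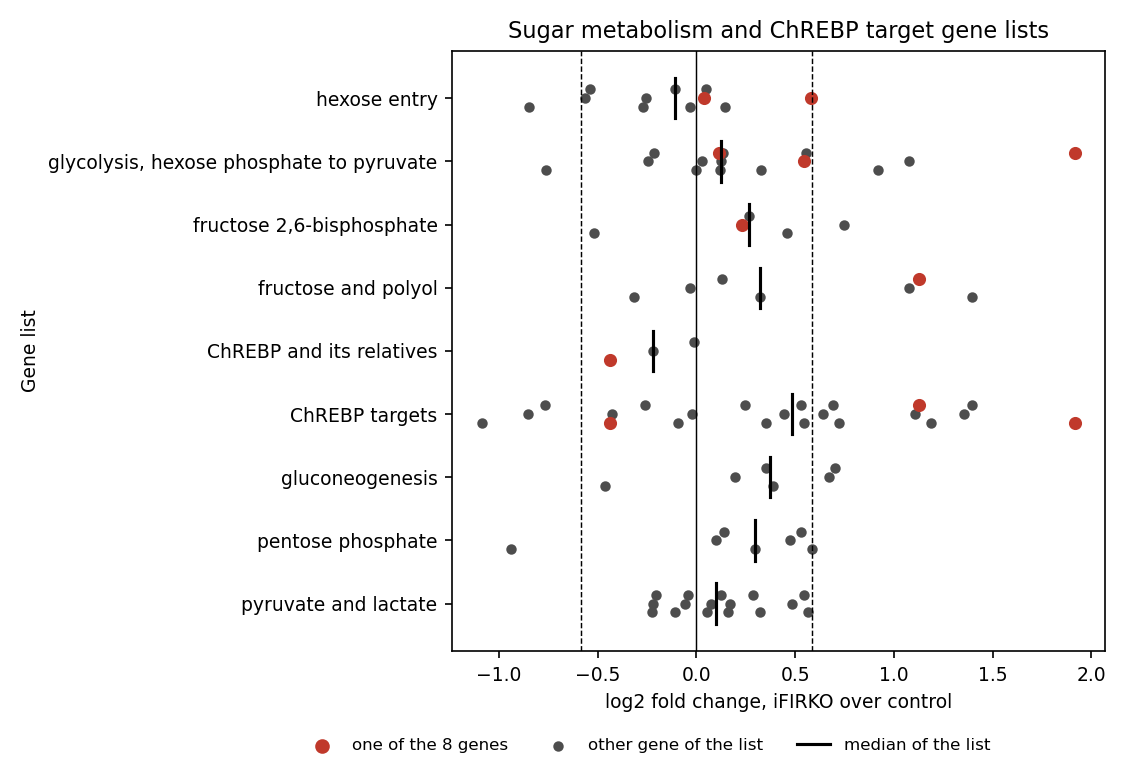
The log2 fold change, iFIRKO over control, of every gene compared in 8 sugar metabolism lists and the ChREBP target list; red points are the 8 genes, grey points the other genes, black bars the list medians and dashed lines 1.5-fold. The ChREBP target list spreads from -1.09 (*Rgs16*) to 1.92 (*Pklr*).

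Known ChREBP targets lay on both sides. Of the 22 targets compared, 9 were more than 1.5-fold higher, 3 were lower and 10 passed neither limit, with a median log2 fold change of 0.48. Over all genes compared, 4.46% were higher and 7.28% lower. The list includes *Pklr*, *Khk* and *Mlxipl*, already described, and was written with earlier results known. The higher genes were *Pklr*, *Khk* and *Tkfc* of sugar breakdown, *Gpd1* and *Me1* (1.35), which supply glycerol phosphate and NADPH, and the fatty acid synthesis genes *Acaca* (0.64), *Fasn* (0.69), *Elovl6* (1.11) and *Scd1* (0.72). *Gpd1* had 12451 normalized reads in control against 28428 in iFIRKO, a log2 fold change of 1.19. The lower targets were *Rgs16*, a regulator of G protein signalling, with a log2 fold change of -1.09, and the related arrestin-domain genes *Txnip* (-0.85) and *Arrdc4* (-0.77). *Thrsp*, a lipogenic regulator, had 0.44 and *Acly*, which provides cytosolic acetyl-CoA, 0.55, below the limit.

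Promoter motifs were found in targets with values in either direction. Of the 4 targets with an E-box, *Khk* had a log2 fold change of 1.13, *Arrdc4* -0.77 and *Mlxipl* -0.44, and *Fgf21* had too few reads. The looser form was present in *Pklr*, *Rgs16* and *Pnpla3*, with log2 fold changes of 1.92, -1.09 and -0.43. Of the 23 listed targets, 18 had a promoter window. Of these genes, 4 held an E-box, 3 the looser form and 1 the strict form in any of their windows. These are counts of genes, whereas the background shares of 7.15%, 7.38% and 0.0457% are of windows. Sequence outside the windows was not searched.

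Genes of the opposite route, gluconeogenesis, were compared in the same way. *Fbp1*, whose product reverses the phosphofructokinase step, had 41561 normalized reads in control against 66101 in iFIRKO, a log2 fold change of 0.67, and *Pcx*, the pyruvate carboxylase gene, had one of 0.70. Both were more than 1.5-fold higher, 2 of 6 genes of the list, beside 4.46% of all genes compared. *Pck1*, the gene of the enzyme that withdraws oxaloacetate toward phosphoenolpyruvate, had 137023 and 99529 normalized reads, a log2 fold change of -0.46. Per kilobase, the level of *Pklr* was 0.0540 times that of *Pck1* in control and 0.281 times in iFIRKO. *G6pc*, the glucose-releasing phosphatase gene, had a log2 fold change of 0.35.

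Downstream of pyruvate, none of 16 genes passed the limit in either direction, beside 11.7% of all genes compared. *Ldha*, a lactate dehydrogenase gene, had a log2 fold change of 0.54, and *Mpc1* and *Mpc2*, which encode the mitochondrial pyruvate carrier, had 0.07 and 0.12. In the pentose phosphate list none of 7 was higher and 1 was lower, beside 4.46% and 7.28% of all genes compared. The lower gene was *G6pdx*, its first enzyme, with 340.8 normalized reads in control against 175.7 in iFIRKO. *Tkt*, *Taldo1* and *Pgd*, the genes of that list with the most reads in control, had log2 fold changes of 0.53, 0.30 and 0.47.

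**Figure D4:**
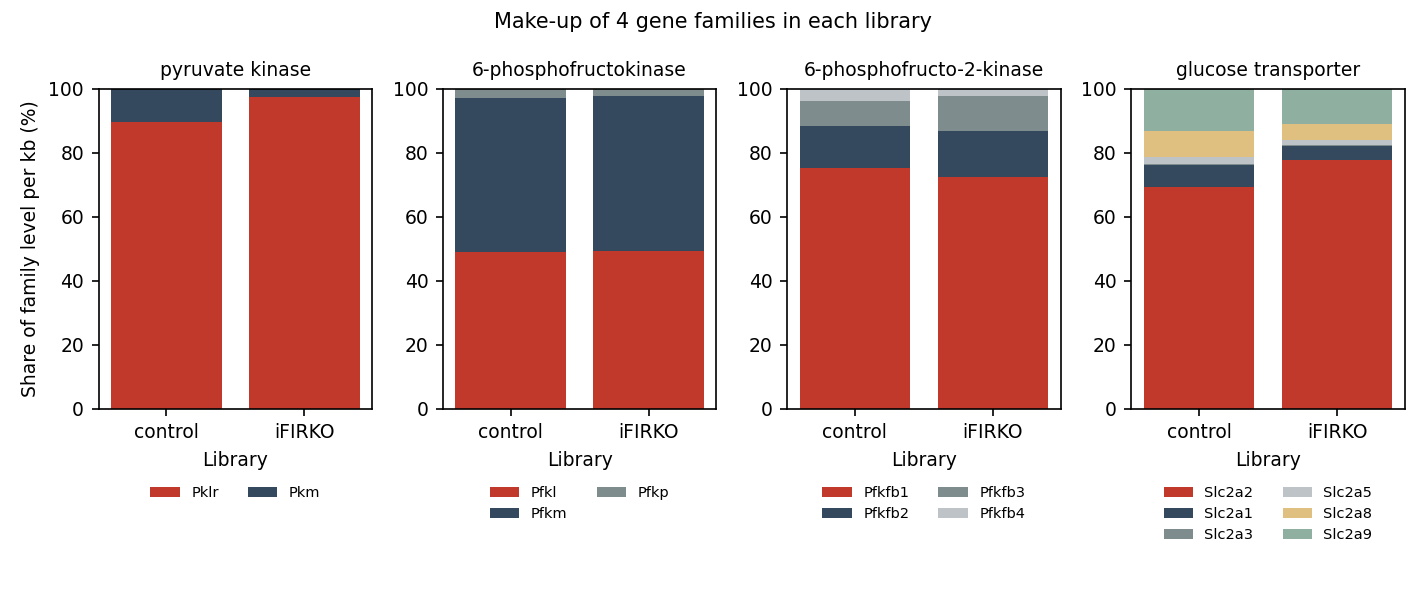
Share (%) of each gene in the summed level per kilobase of merged exons of its family, in the control and the iFIRKO library, 1 library each. The families are pyruvate kinase, phosphofructokinase, the bifunctional kinase and the listed *Slc2a* genes (panel titled glucose transporter), which include the fructose transporter gene *Slc2a5*. The *Pklr* share was 89.5% in control and 97.4% in iFIRKO, and the *Pfkl* share was 49.1% and 49.2%.

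Genes beside the 8 on the chromosome were examined for shared changes or shared reads. Of the 16 nearest compared genes, 1 on each side, 2 were more than 1.5-fold higher, 3 lower and 11 neither. Among all genes compared, 4.46% were higher and 7.28% lower. *Gm6505*, a higher neighbour beside *Slc2a2*, had only 32.4 and 50.9 normalized reads, with an interval from -0.30 to 1.67 on the log2 scale. *Fdps* and *Clk2*, the neighbours of *Pklr*, had log2 fold changes of -0.63 and 0.11, and *Emilin1* and *Abhd1*, those of *Khk*, 0.19 and 0.52. *Alas2*, an erythroid gene beside *Pfkfb1*, had one of 1.58. *Hcn3* overlaps the end of *Pklr* by 711 bases on the opposite strand and had 7.95 and 25.5 normalized reads, too few to be compared. Whether strand was used in counting is not given, so the origin of reads in such an overlap is uncertain. *Pfkfb1* overlaps *Apex2* by 1640 bases, and *Gapdh* overlaps *Iffo1* by 68 bases, also on opposite strands.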

How the data were processed

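Liver RNA was prepared as TruSeq stranded mRNA libraries and sequenced on a NovaSeq instrument. The authors deposited 1 file per library of log2 normalized read counts by gene symbol, in which counts of 1 or less appear as 0. The submitters' processing notes name mm10; the aligner, counter and scaling are not given in the sources used here. Here log2 values were converted back to linear ones. The commonest low value was taken as 1 read pair, after which 40.2% of values under 100 in control and 40.5% in iFIRKO were whole to within 0.01. Depths are therefore estimates, and no count test such as a generalized linear model was fitted. The binomial intervals use the estimated pairs rounded to whole numbers and are approximate. A CPM of 1 was a millionth of the mean total. A fold interval was given only where both libraries had more than 3 read pairs. Positions and merged exon lengths came from GENCODE M21 (GRCm38), where 49684 of 53241 symbols matched. *Aldoa* has 2 rows, of which the larger was used.

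The genes and lists were chosen with earlier results of these data known. Genes named were the 8, list genes past 1.5-fold or among the 3 most abundant, family members and neighbours; others were named after their values were seen. Scripts were checked on simulated libraries. Tools were scipy 1.17.1, numpy 2.4.6, pandas 2.3.3 and matplotlib 3.10.9 under Python 3.11.15. Alternatives were another pseudocount, the plain ratio, 5 scalings, 3 minimums, a fold of 2, summed symbols and 2 other length corrections for family shares. Results for a few single genes of the lists are left out of the text.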

Additional observations from a re-analysis of the deposited data

How the results depend on the processing

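*Pklr* stayed between 1.37 and 2.13 on the log2 scale and above 1.5-fold under every setting tried, and *Mlxipl* stayed negative, between -0.99 and -0.23. Apart from scaling to a single gene, the same 2 of the 8 genes were past 1.5-fold, also with a fold of 2, and *Slc2a2* lay between 0.57 and 0.58. Scaling to *Rplp0* shifted all genes by 0.21 on the log2 scale and gave 4 higher genes of the 8, a median of 0.60 for them, 27 higher genes in the sugar and ChREBP target lists together, and 1302 higher and 505 lower genes in all (72.1% higher). Scaling to *Gapdh* shifted all genes by -0.55 and gave 1 higher gene of the 8, since *Khk* fell to 0.58, with *Mlxipl* now more than 1.5-fold lower, a median of -0.16, 4 higher list genes, and 156 higher and 5660 lower genes (2.68% higher, against 38.0% with the authors' scaling). *Gckr*, *Pfkl* and *Pfkfb1* changed sign there. The median of the 8 minus that of all genes was 0.38 under both scalings. This is no check, because such scaling shifts all genes alike. The number of higher and lower genes in all was 371 and 576 with a pseudocount of a CPM of 1, 1960 and 2620 with no minimum, 288 and 440 with a minimum CPM of 5, and 209 and 267 with a fold of 2, which also left 7 higher list genes. Family shares varied with the length correction. In control, the *Pklr* share was 82.3% with the longest transcript as the length and 84.7% without length correction. The *Slc2a2* share in control was 66.0% and 76.0% in the same order. No paired analysis was possible because only 1 control and 1 iFIRKO library were compared.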
